A study of Mus musculus with 24 samples.

Results

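The diet by metformin interaction was examined in RNA sequencing data from the ileum, the last stretch of the small intestine, of C57BL/6N mice, as the difference between the effect of metformin on a high-fat diet and its effect on a control diet, (HFDmetf − HFD) − (CDmetf − CD). All 24 libraries of the series entered, 1 per mouse, in 4 groups of 6 animals (3 males and 3 females each). CD animals ate a control diet with 10% of energy from fat and drank plain water; CDmetf animals ate the same diet and received metformin in drinking water at 50 mg/kg/day; HFD animals ate a diet with 60% of energy from fat and are labelled obese; HFDmetf animals ate the high-fat diet and received the same metformin dose. The mice were 4 to 5 weeks old at the start, ate their diet for 20 weeks before metformin began and were sampled after 10 weeks of metformin, each from a separate cage. No animal carried a transgene or deletion. A negative interaction means that the log2 fold change of a gene with metformin was lower on the high-fat diet than on the control diet, and a positive interaction means that it was higher.

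Metformin is an oral drug against hyperglycemia that reaches high concentrations in the intestinal wall, inhibits respiratory complex I and activates the energy sensor AMPK. The ileum is also an immune organ. Its mucosa holds isolated lymphoid follicles and Peyer's patches, in which B cells cluster around follicular dendritic cells, T cells surround them, and the chemokine receptors Cxcr5 and Cxcr4 and their ligands place cells in the follicle. NF-kappa B is a family of dimeric transcription factors held inactive by inhibitor proteins, and its members Rel and Nfkb2 act in lymphocytes and in the formation of lymphoid tissue. Because a piece of ileum is sequenced whole, fewer cells of a type and less RNA per cell cannot be told apart.

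The B-cell, T-cell and lymphoid stroma lists had median metformin log2 fold changes below 0 on the high-fat diet and above 0 on the control diet, a pattern of 14 of 14, 11 of 12 and 5 of 9 of their genes tested. The pancreatic acinar, red blood cell and clock lists had the reverse, which held for 6 of 7, 4 of 4 and 10 of 17 of their genes tested. In the acinar list 8 of 15 genes did not pass the filter on low counts. Its largest interactions rest on 4 libraries, CD male 1, CD female 1, HFDmetf male 2 and HFDmetf female 1. No single gene passed correction over all genes. The adipocyte list also had the reverse, but its median interaction of 3.15 became −2.75 in limma-voom and −0.19 with a smooth muscle score in the fit. Of 14076 genes tested, 0 (0% of them) had an interaction past a false discovery rate (FDR) of 0.05 by the quasi-likelihood test of edgeR, adjusted over all genes after Benjamini and Hochberg, and the lowest FDR was 0.547. At an unadjusted p under 0.05 the interaction was higher for 428 genes (3.04% of those tested) and lower for 421 genes (2.99%), 849 in all. limma-voom gave 0 genes past the FDR threshold and 839 at the unadjusted threshold, and DESeq2 gave 4 and 987. The 4 genes were Clu, the immunoglobulin segment Ighv1-75, and Lars2 and Gm15564, and the last 2 had 2389202 and 299662 reads in CD male 3 against at most 20656 and 1763 in any other library. Metformin log2 fold changes had opposite signs on the 2 diets for 49.3% of all genes tested, being below 0 on the high-fat diet and above 0 on the control diet for 22.5% and the reverse for 26.8%. Of the 849 genes, 412 had the first pattern, 423 the second and 14 the same sign on both diets; a large difference between 2 effects tends to have them on either side of 0, so this split follows in part from the threshold. Every member named below is therefore given with its values, and "higher" or "lower at p under 0.05" refers to the unadjusted p of the interaction.

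Several libraries stood apart. Reads on genes ran from 1829690 in HFDmetf female 2 to 40606442 in HFD female 1, so that 3 reads, taken as the floor of detection, were worth 0.0705 to 1.71 CPM, the counts scaled to a common normalised library size. In CD male 3, 3 transcripts (CT010467.1, Gm23935 and Lars2) took 34.6%, 30.5% and 10.7% of the reads. HFD male 2 had 3355 Xist reads and 0 reads on Y-linked genes while HFD female 2 had 1 and 423, so both went against their labelled sex. The epithelial markers Vil1 and Epcam were present everywhere, at 694 CPM or more and 641 CPM or more. The ileal bile acid binding protein Fabp6 ranged from 32.6 to 2662 CPM in 23 libraries and had 2 reads in HFD male 3, in which the ileal bile acid transporter Slc10a2 had 12. Without CD male 3 the interaction was higher for 243 genes and lower for 440 at p under 0.05, and signs were opposite for 39.9% of genes. Without HFD male 2 and HFD female 2 the counts were 301 and 419, and without these 3 libraries and the shallowest, HFDmetf female 2, they were 172 and 415.

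Cxcr4, Clu and Rel were followed first, since they were the markers named for this contrast. All 3 were higher with metformin on the control diet and lower with metformin on the high-fat diet. Cxcr4 (chr1:128588199-128592293, GRCm38, minus strand), the receptor for the chemokine Cxcl12 that retains lymphocytes in tissues and germinal centres, had a lowest, median and highest value of 2.05, 3.29 and 6.37 CPM in CD and 2.10, 5.33 and 20.0 CPM in CDmetf. In HFD the same 3 values were 2.14, 5.68 and 17.7 CPM, and in HFDmetf 2.66, 3.14 and 5.65 CPM. CDmetf female 2 and male 1 were the high libraries on the control diet and HFD female 1 and male 2 on the high-fat diet, and the 4 groups overlapped. The interaction of Cxcr4 was −2.11 ± 0.62 (log2, ± SE; FDR = 0.691 in edgeR's quasi-likelihood test), from a metformin log2 fold change of −0.99 on the high-fat diet and 1.12 on the control diet.

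Clu (chr14:65968483-65981547, plus strand) encodes clusterin, a secreted chaperone that is abundant in follicular dendritic cells and also marks regenerating crypt cells. It had 16.2, 22.9 and 49.5 CPM (lowest, median, highest) in CD and 28.8, 62.6 and 200 CPM in CDmetf, against 13.3, 61.4 and 185 CPM in HFD and 22.1, 30.1 and 43.8 CPM in HFDmetf. The 6 HFDmetf libraries thus lay in the range of the CD libraries, while 3 CDmetf libraries and 3 HFD libraries were above every library of those 2 groups. Its interaction was −2.80 ± 0.67 (FDR = 0.547, edgeR), with −1.25 on the high-fat diet and 1.55 on the control diet. DESeq2 gave −2.82 with an FDR of 0.048. Animals were matched by labelled sex and replicate number into 6 sets of 4. The interaction of Clu was below 0 in 6 of 6 sets, which held for 2.37% of all genes tested. Sets here and below follow the labels of HFD male 2 and HFD female 2, whose sex-linked reads went against them. Clu had 418 reads in HFD male 2 and 31 in HFD female 2, so its count of sets depends on these labels. A replicate number is also not shown to pair animals. The sets hold the same libraries as the fit, so a count of sets is no separate support for an interaction.

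Rel (chr11:23736847-23770970, minus strand), the c-Rel subunit of NF-kappa B, differed by less but more evenly among animals. Its lowest, median and highest values were 18.2, 26.3 and 36.5 CPM in CD and 29.3, 33.4 and 51.2 CPM in CDmetf, and each CDmetf animal was above the CD animal of its sex and number. They were 24.1, 29.7 and 39.1 CPM in HFD and 15.4, 24.2 and 33.6 CPM in HFDmetf, where 4 of 6 animals were below their HFD counterpart. The interaction was −0.83 ± 0.27 (FDR = 0.709, edgeR) and below 0 in 6 of 6 sets. Leaving out any 1 of the 24 animals kept the unadjusted p under 0.05 for all 3 genes, with interactions from −2.34 to −1.74 for Cxcr4, from −3.05 to −2.44 for Clu and from −0.96 to −0.72 for Rel. Such fits share most of their libraries with the full fit, so they are no separate support. Without HFD male 2 and HFD female 2 the interactions were −2.28, −2.83 and −0.84.

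**Figure D1:**
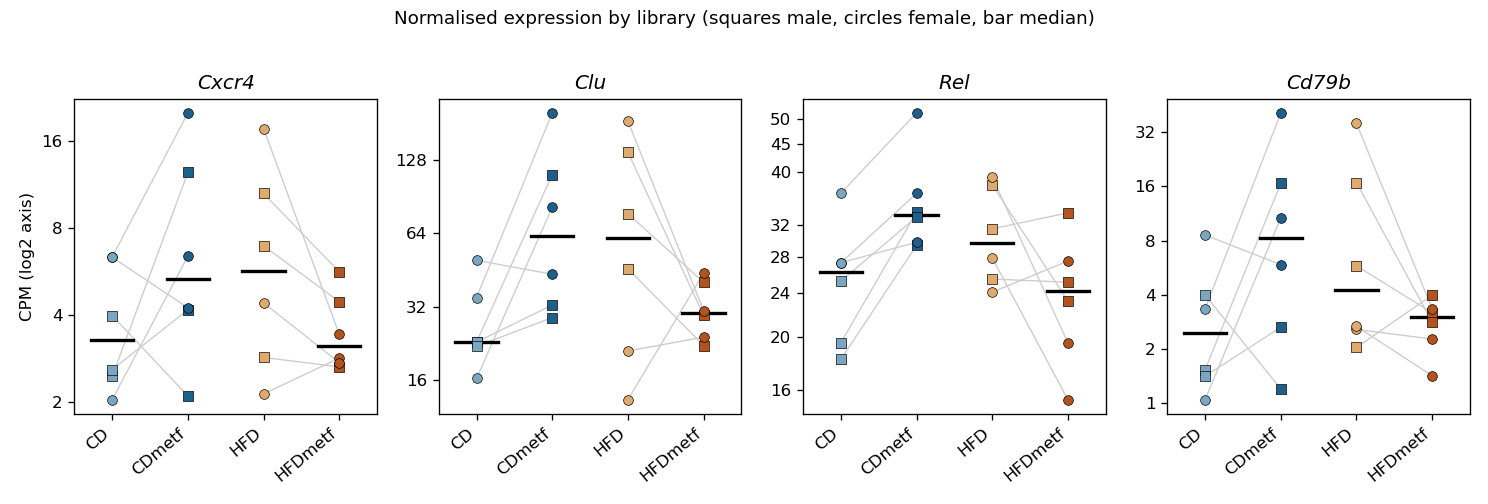
Normalised expression (CPM, log2 axis) of Cxcr4, Clu, Rel and the B-cell gene Cd79b in each library, for the 4 groups of 6 animals. Squares are males and circles females by label, and the bar is the group median. Lines join animals of the same labelled sex and replicate number. For Cxcr4, Clu and Cd79b the medians of CDmetf and HFD lie above those of CD and HFDmetf, and the highest libraries are CDmetf female 2 and HFD female 1.

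Among the lists with a negative interaction, B-cell genes are described first. The 10 genes with the smallest p among those lower on the high-fat diet and higher on the control diet with metformin were named by rule, with immunoglobulin segments and predicted genes set aside. Cd79b, a chain of the B-cell receptor, had 1.05, 2.45 and 8.59 CPM (lowest, median, highest) in CD, 1.20, 8.29 and 40.9 CPM in CDmetf, 2.04, 4.23 and 35.8 CPM in HFD and 1.42, 3.00 and 3.98 CPM in HFDmetf. CDmetf female 2 and HFD female 1 were the high libraries, CD female 1 was the high CD library, and the 4 groups overlapped. The interaction of Cd79b was −3.79 ± 0.93 (FDR = 0.547, edgeR), from a metformin log2 fold change of −1.74 on the high-fat diet and 2.05 on the control diet.

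Others of these 10 also had effects below 0 on the high-fat diet and above 0 on the control diet, as the rule required. Fcmr, the receptor for secreted IgM, had an interaction of −6.68 ± 1.56, with medians of 0.493, 3.35, 1.44 and 0.236 CPM in CD, CDmetf, HFD and HFDmetf. Cxcr5, the receptor that draws B cells to the follicle, had −6.09 ± 1.51, Fcrl1, a B-cell surface receptor, −4.77 ± 1.11, and Bank1, a B-cell scaffold protein, −4.29 ± 1.07. Ly6d, which marks early B-lineage cells, had −2.95 ± 0.71, and Il27ra, a cytokine receptor of lymphocytes, −2.77 ± 0.63. Ikzf1, the transcription factor Ikaros of all lymphoid cells, had −2.04 ± 0.50 and was the most evenly detected, with 5.09, 8.30 and 9.87 CPM in CD, 6.99, 12.2 and 43 CPM in CDmetf, 6.95, 9.84 and 29.1 CPM in HFD and 5.31, 6.83 and 9.67 CPM in HFDmetf. Several of these genes had 0 to 10 reads in many libraries, so a log2 value of this size rests on the few libraries that held them.

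As a list, 13 of 14 B-cell markers were lower at p under 0.05 and 0 were higher, beside 2.99% lower over all genes. Most of these markers were high in the same libraries, so they are not separate measurements. All 14 were below 0 on the high-fat diet and above 0 on the control diet, against 22.5% of all genes. The median interaction was −4.01, made of medians of −2.03 on the high-fat diet and 2.05 on the control diet, where the medians over all genes tested were 0.03, 0.03 and −0.00. Pax5, the factor that fixes B-cell identity, had −5.81 ± 1.49 and Ms4a1, which encodes CD20, −5.32 ± 1.34, while Ebf1, also expressed in stromal cells, had −0.67 ± 0.76. The summed level of the 14 markers ran from 28 to 126 CPM in CD (median 60.5), from 45 to 599 CPM in CDmetf (median 115), from 43.7 to 473 CPM in HFD (median 78.0) and from 31.7 to 91.0 CPM in HFDmetf (median 60.6). Above the highest CD library stood 5 libraries, CDmetf male 1, female 2 and female 3 and HFD male 2 and female 1, and no HFDmetf library reached it. The median interaction stayed between −4.41 (without CD female 1) and −3.18 (without HFD female 1) when 1 animal was left out.

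**Figure D2:**
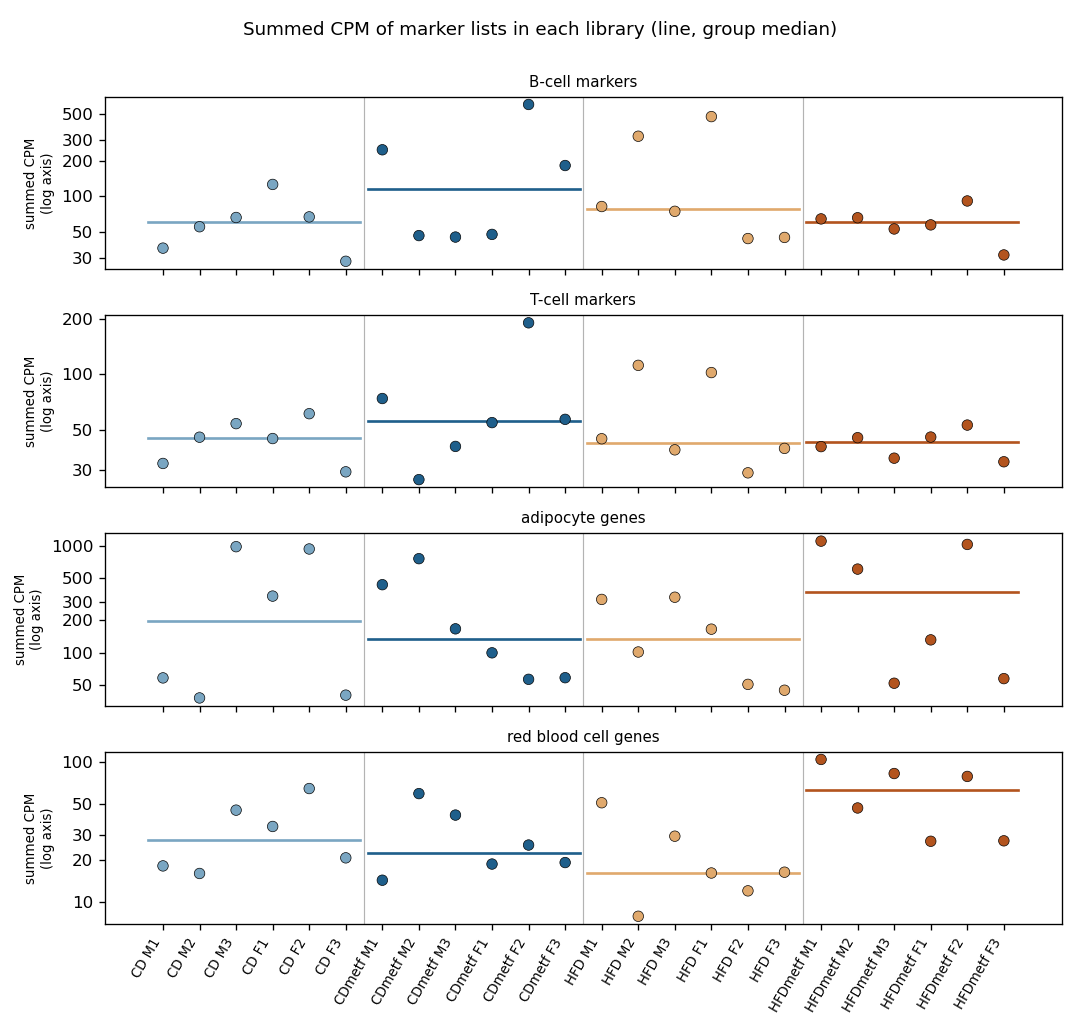
Summed CPM of the B-cell, T-cell, adipocyte and red blood cell lists in each of the 24 libraries, on log axes; horizontal lines are group medians. B-cell sums above 126 CPM occur in 3 CDmetf and 2 HFD libraries, and the red blood cell sums are highest in HFDmetf male 1, at 104 CPM.

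Genes of B-cell receptor signalling moved the same way with smaller values. Of 16 tested, 9 were lower at p under 0.05 and 0 higher, and the median interaction was −0.68. Lyn, the kinase that starts the signal, had −0.66 ± 0.20 and Btk, the kinase downstream of it, −2.02 ± 0.67. Among 12 T-cell markers that passed the filter on low counts, of 17 listed, 9 were lower and 0 higher, with a median of −1.79; Cd28, the co-stimulatory receptor, had −1.66 ± 0.50 and Cd2, an adhesion receptor, −3.00 ± 1.04. Cd2 was not at p under 0.05 without HFD female 1, with an interaction of −1.92. The T-cell sum was highest in CDmetf female 2, HFD male 2 and HFD female 1, which were also the libraries highest in B-cell markers. Of the 14 genes listed for intraepithelial and cytotoxic T cells only 2 passed the filter, Cd160 with −0.86 ± 0.52 and Itgae with −0.11 ± 0.28.

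Genes that place lymphocytes in the gut wall were next. Of 21 homing chemokines, receptors and adhesion molecules 16 were tested, of which 8 were lower at p under 0.05 and 0 higher, with a median of −1.05. Among the lower members were Cxcr5, Ccr6 (the receptor of lymphocytes in follicles and Peyer's patches, −3.81 ± 1.17), Cxcl13 (the follicle chemokine, −3.37 ± 1.03), Cxcr4, Madcam1 (the mucosal vessel addressin, −1.78 ± 0.66), and the integrin chains Itgal (−1.35 ± 0.47) and Itga4 (−0.76 ± 0.34). The small-intestinal axis of Ccr9 and its ligand Ccl25, by contrast, was near 0, at −0.21 ± 0.33 and −0.05 ± 0.26, and Cxcl12, the ligand of Cxcr4, was at −0.13 ± 0.50. Among follicular dendritic and lymphoid stroma genes 5 of 9 tested were lower, namely Clu, Cr2 (complement receptor 2, −4.94 ± 1.29), Cxcl13, Fcgr2b (−0.88 ± 0.30) and Madcam1, with a median of −0.88. Cr2 and Cxcl13 were highest in CDmetf female 2, at 50.6 and 37.3 CPM, and in HFD female 1, at 45.5 and 20.8 CPM. Cr2 is also in the B-cell list, and Clu, Cxcl13 and Madcam1 are not.

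Plasma cell genes were weaker. Of 11 tested 3 were lower at p under 0.05, Tnfrsf13b (the receptor TACI, −1.54 ± 0.50), Irf4 (−0.96 ± 0.37) and Ighm (the IgM heavy chain, −2.40 ± 0.99), and the median was −0.58. The genes of secreted IgA, the main antibody of the gut, did not pass that threshold: Igha had −0.23 ± 0.40, Jchain −0.58 ± 0.44 and Pigr, the receptor that carries IgA across the epithelium, −0.12 ± 0.38. Of 118 immunoglobulin V segments tested 15 were lower and 2 higher, with a median of −0.85; near-identical segments share reads, so single segments are uncertain. In the germinal centre list 2 of 7 genes tested were lower, Cxcr5 and the interleukin 21 receptor Il21r (−3.25 ± 1.01).

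Antigen presentation genes had the same direction. All 9 MHC class II genes tested were below 0 on the high-fat diet and above 0 on the control diet, 6 of them were lower at p under 0.05 and 0 higher, and the median interaction was −0.82. H2-Ob and H2-DMb2, parts of the non-classical class II proteins that tune peptide loading in B cells, had −3.72 ± 0.97 and −3.66 ± 0.91. The classical chain H2-Aa had −0.87 ± 0.29, the invariant chain Cd74 −0.82 ± 0.37 and the class II activator Ciita −1.05 ± 0.46. For MHC class I presentation 3 of 14 genes were lower and 0 higher (median −0.53), among them Tap2, a subunit of the peptide transporter, at −0.65 ± 0.24, and Psmb8, an immunoproteasome subunit, at −0.89 ± 0.36. Macrophage and dendritic cell genes did not share this pattern. Of 14 tested, 0 were lower and 0 higher at p under 0.05, 13 had the same sign on both diets, and the medians with metformin were 0.44 on the high-fat diet and 0.36 on the control diet.

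NF-kappa B genes were described as subunits, inhibitors and kinases first. All 20 listed were tested, 3 were lower at p under 0.05 and 0 higher, 11 were below 0 on the high-fat diet and above 0 on the control diet, and the median was −0.24. Without CD male 3, HFD male 2, HFD female 2 and HFDmetf female 2 together, 1 was lower and the median was −0.14. Besides Rel these were Nfkb2, the p100 precursor of the non-canonical pathway, and Nfkbia, the inhibitor I kappa B alpha, which is itself induced by NF-kappa B. Nfkb2 had 28.5, 38.6 and 41.5 CPM (lowest, median, highest) in CD, 27.0, 48.4 and 55.7 CPM in CDmetf, 24.4, 42.3 and 59.3 CPM in HFD and 23.8, 31.1 and 46.8 CPM in HFDmetf. The highest libraries were HFD male 2, HFD female 1 and CDmetf female 2, and all groups overlapped. Its interaction was −0.67 ± 0.26, and −0.54, no longer at p under 0.05, without HFD male 2 and HFD female 2. Nfkbia had −0.44 ± 0.21, and Nfkbie, another inhibitor, had −0.94 ± 0.45 and did not pass. The subunits Rela (−0.16 ± 0.20) and Nfkb1 (−0.05 ± 0.16), which form the classical dimer in most cells, and the kinase Ikbkb (−0.00 ± 0.16) were near 0.

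The promoters of Cxcr4, Rel and Nfkb2 are printed because these genes differed in the same direction and 2 of them belong to the family whose motif was searched. Each window runs from 250 bases before to 50 bases after the start site, from RefSeq on GRCm38.p6, 5′ to 3′ on the strand of the gene, and capitals mark bases inside a match to the kappa B consensus on either strand; overlapping matches run together. Clu was not in the promoter table.
Cxcr4, chr1:128592250-128592549, minus strand: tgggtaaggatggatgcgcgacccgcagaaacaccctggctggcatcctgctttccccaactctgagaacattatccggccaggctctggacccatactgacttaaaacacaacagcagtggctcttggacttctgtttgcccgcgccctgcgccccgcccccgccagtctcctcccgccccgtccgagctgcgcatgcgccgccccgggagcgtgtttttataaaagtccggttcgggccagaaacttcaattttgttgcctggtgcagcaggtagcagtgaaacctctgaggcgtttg
Rel, chr11:23770920-23771219, minus strand: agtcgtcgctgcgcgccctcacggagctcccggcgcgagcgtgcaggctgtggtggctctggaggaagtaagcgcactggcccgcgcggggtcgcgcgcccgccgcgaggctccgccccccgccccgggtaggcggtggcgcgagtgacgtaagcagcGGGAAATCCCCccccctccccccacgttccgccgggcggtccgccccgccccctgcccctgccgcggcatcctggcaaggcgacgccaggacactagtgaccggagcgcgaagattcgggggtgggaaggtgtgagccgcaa
Nfkb2, chr19:46304487-46304786, plus strand: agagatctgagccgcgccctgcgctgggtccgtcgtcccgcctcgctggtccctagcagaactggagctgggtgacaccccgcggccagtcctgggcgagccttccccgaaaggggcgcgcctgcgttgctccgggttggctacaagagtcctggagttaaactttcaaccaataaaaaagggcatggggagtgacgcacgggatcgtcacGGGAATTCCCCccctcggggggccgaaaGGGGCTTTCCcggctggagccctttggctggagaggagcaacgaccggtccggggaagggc
Rel held a match at −92 from its start and the Nfkb2 window shown had matches at −39 and −11, whereas Cxcr4 had none. The consensus was present in 2779 of 32851 windows (8.46%). It was present in 11 of 22 windows of the 16 NF-kappa B list genes found in the table, and in 4 of 19 windows of the 16 genes found among the 22 named individually. A match describes letters in a window and says nothing of binding in these animals.

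Targets of NF-kappa B gave 3 of 9 tested genes lower at p under 0.05 and 0 higher, with a median of −0.60; 9 of 18 listed did not pass the filter. Ltb, the lymphotoxin chain that lymphocytes use to build follicles, had −2.94 ± 0.98, Icam1, an adhesion molecule, −0.90 ± 0.38, and the apoptosis inhibitor Birc3 −0.60 ± 0.27. Sod2, a target expressed in most cells, had −0.01 ± 0.13. Ltb lost p under 0.05 in 1 of 24 fits that left out an animal, without HFD female 1 (−2.02), and Icam1 in 5 of 24 (−0.66 without HFD female 1). Of 15 Toll-like receptor genes 2 were lower, Tlr9 (−1.82 ± 0.68), which senses microbial DNA in B cells and dendritic cells, and Tlr1 (−0.89 ± 0.33).

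Interferon-stimulated genes tilted the same way with little support from single genes. Of 21 tested 2 were lower at p under 0.05, 0 were higher, 15 were below 0 on the high-fat diet and above 0 on the control diet, and the median was −0.42. Irf7, the master factor of the interferon response, had 27.4, 69.9 and 80.2 CPM (lowest, median, highest) in CD, 67.5, 70.2 and 108 CPM in CDmetf, 30.7, 73.9 and 82.0 CPM in HFD and 21.0, 33.9 and 83.2 CPM in HFDmetf. The groups overlapped, and HFDmetf had the lowest median. The interaction of Irf7 was −1.15 ± 0.42 (FDR = 0.799, edgeR) and below 0 in 6 of 6 sets, and that of Ifit1, an antiviral RNA-binding protein, was −1.32 ± 0.62.

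Several of the genes and lists above were highest in libraries that were also high in B-cell markers. The score of the B-cell list, its mean log2 CPM over the 14 members, was therefore added to the fit as a covariate. The list itself had a median interaction of −4.01. A score made of it takes up part of any interaction of the same group pattern. Smaller values with the score follow in part from that shared pattern. The interaction of Cxcr4 was then −0.47, that of Clu −0.92 and that of Rel −0.52, and of these only Clu stayed at p under 0.05. The medians became −0.08 with 0 of 12 lower for T-cell markers, −0.07 with 0 of 16 for homing genes, −0.05 with 0 of 20 for NF-kappa B subunits, −0.14 with 0 of 9 for its targets, −0.52 with 0 of 9 for MHC class II and −0.16 with 0 of 21 for interferon-stimulated genes. Ikzf1 (−0.65), Lyn (−0.59) and Il27ra (−1.28) stayed at p under 0.05 with the score. For B-cell markers themselves the score holds the genes it is fitted to, so their median of −0.28 is no separate measurement. Over all genes, 935 had p under 0.05 with the covariate, 405 of them among the 849. Whether the score and these genes share a source, such as a follicle in the piece of tissue, was not tested.

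**Figure D3:**
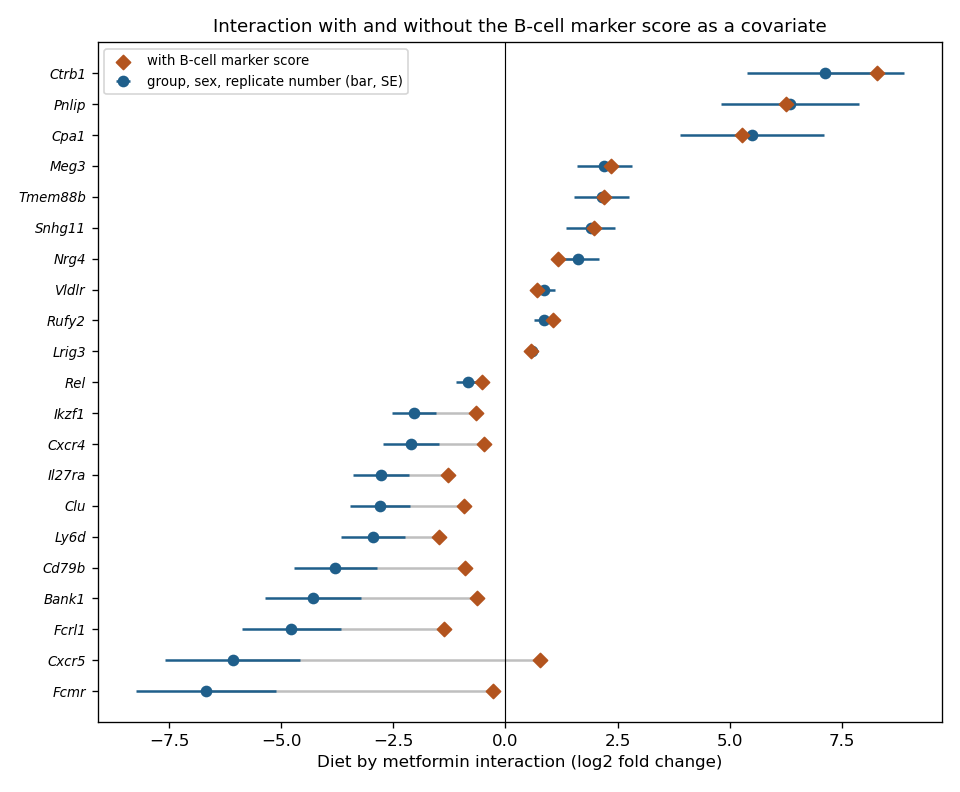
Diet by metformin interaction, as log2 fold change, of 21 genes named individually, without (circles, bars are SE) and with (diamonds) the B-cell marker score of each library as a covariate. Genes with a negative interaction move towards 0, Cxcr4 from −2.11 to −0.47, and Cxcr5 moves past 0, whereas Lrig3 stays at 0.60 and 0.56. Cd79b and Bank1 are members of the score, so their shift is no separate measurement.

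Genes with the opposite pattern, lower with metformin on the control diet and higher with metformin on the high-fat diet, were named by the same rule. Lrig3, a membrane protein that tunes growth factor receptors, had the smallest p, with 53.2, 66.9 and 72.3 CPM (lowest, median, highest) in CD, 46.3, 48.5 and 63.9 CPM in CDmetf, 44.9, 54.0 and 63.7 CPM in HFD and 58.6, 64.4 and 69.1 CPM in HFDmetf. CD male 3 was the single low CD library, and without it CD lay above CDmetf in every animal. Each HFDmetf animal was above the HFD animal of its labelled sex and number. The interaction was 0.60 ± 0.14 (FDR = 0.547 in edgeR's quasi-likelihood test), above 0 in 6 of 6 sets (2.66% of all genes), 0.65 without CD male 3 and 0.56 with the B-cell score. Lrig3 was picked for its p in these same libraries, so its count of sets is no separate support.

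Rufy2, an effector of vesicle traffic, had medians of 17.6, 13.5, 13.2 and 17.3 CPM in CD, CDmetf, HFD and HFDmetf and an interaction of 0.86 ± 0.22 (1.05 with the B-cell score). Its HFD libraries reached 14.5 CPM, and 5 of the 6 HFDmetf animals were above their counterpart. Vldlr, a receptor for triglyceride-rich lipoproteins, had medians of 15.4, 12.8, 13.2 and 16.5 CPM and 0.87 ± 0.25 (0.71 with the score). Both were above 0 in 6 of 6 sets. Prkab2, a regulatory subunit of AMPK, the kinase that metformin activates, had medians of 11.4, 9.41, 9.71 and 11.4 CPM. Its interaction was 0.64 ± 0.21, and 0.69 with the score. It was higher with metformin in 6 of 6 high-fat diet animals than in the HFD animal of the same labelled sex and number. All 4 genes stayed at p under 0.05 with the score and with any 1 animal left out. These fits share most libraries with the fit whose p picked the genes, so this is no separate support. Prkab2 was the only one of 16 AMPK genes at p under 0.05, and the list had a median of 0.03. Over all genes tested 3.04% were higher and 2.99% lower, so 1 of 16 is no result about the list.

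**Figure D4:**
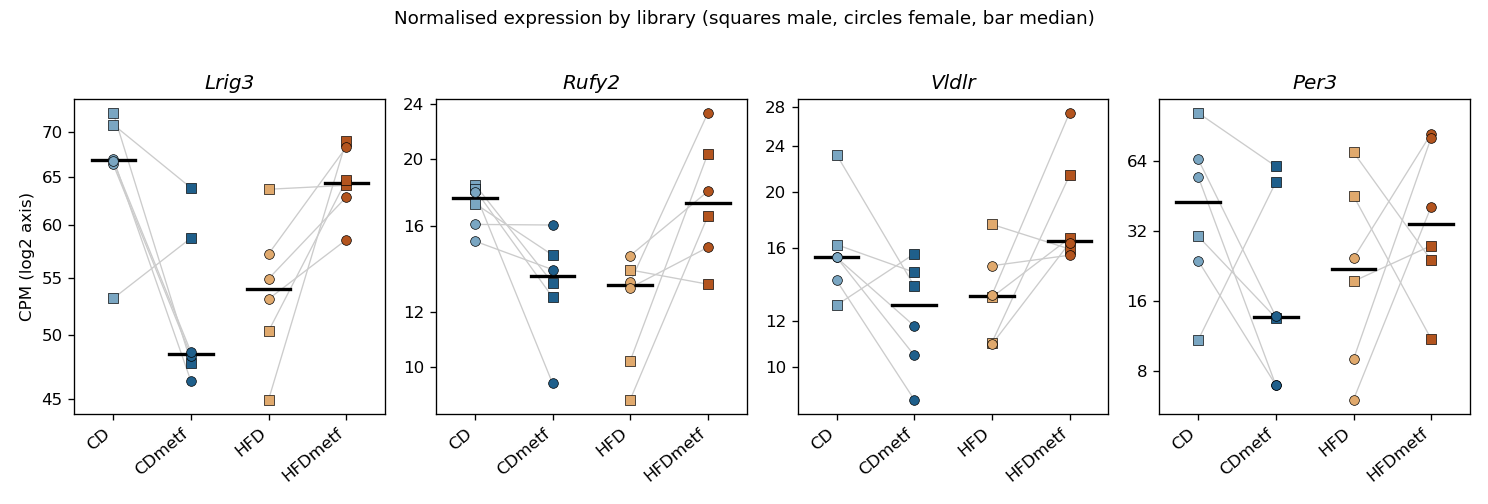
Normalised expression of Lrig3, Rufy2, Vldlr and the clock gene Per3 in each library, in CPM on a log2 axis. Squares are males and circles females by label, and the bar is the group median. Lines join animals of the same labelled sex and replicate number. The medians of CD and HFDmetf lie above those of CDmetf and HFD in all 4 panels. The groups overlap within each diet, and in the Rufy2 panel the 6 CD libraries lie above the 6 HFD libraries.

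Among the other genes of this direction was Tmem88b, a membrane protein, with an interaction of 2.14 ± 0.61. It was the only gene in the plot of interactions with and without the B-cell score whose groups did not overlap on 1 diet. It had 2.01 to 6.36 CPM in CD and 0.519 to 1.85 CPM in CDmetf. CDmetf male 1, male 2 and female 2 had 2 reads each and CDmetf female 1 had 3, at or below the floor of 3 reads. CD female 2 had 6 reads, so this separation rests on few reads. Nrg4, a ligand of the receptor ErbB4, had 1.63 ± 0.47. The long noncoding RNAs Meg3 (2.20 ± 0.61) and Snhg11 (1.90 ± 0.55) were also positive. With 1 animal left out, both were smallest without CD male 3, at 1.64 and 1.52.

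Among clock genes few single members crossed the threshold. Of 17 tested 3 were higher and 1 lower at p under 0.05, 10 were above 0 on the high-fat diet and below 0 on the control diet (26.8% of all genes), and the median was 0.56. The higher members were Per3, a repressor of the clock, Hlf, a factor that activates D-box genes, and Bhlhe41, another repressor (1.12 ± 0.53), and the lower one was Nfil3 (−1.54 ± 0.73), which represses the same D-box genes. The activator Arntl was at −1.14 ± 0.87 and its partner Npas2 at −1.04 ± 0.69. Per3 had 10.9, 42.5 and 103 CPM (lowest, median, highest) in CD, 6.96, 13.6 and 60.5 CPM in CDmetf, 6.04, 21.9 and 69.5 CPM in HFD and 11.0, 34.1 and 83.5 CPM in HFDmetf. Each group thus held low and high animals, and the interaction was 2.09 ± 0.95 (FDR = 0.799, edgeR), which stayed at p under 0.05 in 12 of 24 fits that left out 1 animal. Hlf had 1.80 ± 0.75, in 19 of 24 such fits at p under 0.05. With the B-cell score the list had 0 higher and 0 lower and a median of 0.46, and without HFD male 2 and HFD female 2 it had 0 higher, 1 lower and a median of 0.74. The hour at which each animal was sampled is not given in the sources used here, and its part in these values was not tested.

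The promoter of Per3 is shown because a searched clock motif, the D-box TTATGTAA (both strands), occurs in it 2 times, in capitals. The D-box was present in 308 of 32851 windows (0.938%). Besides it and the kappa B consensus, an octamer motif and the E-box CACGTG were searched. The E-box, present in 7.15% of windows, occurred in windows of Per1, Cry1, Tef, Ciart and Bhlhe41. Per3 was thus picked for its match.
Per3, chr4:151044616-151044915, minus strand, GRCm38.p6: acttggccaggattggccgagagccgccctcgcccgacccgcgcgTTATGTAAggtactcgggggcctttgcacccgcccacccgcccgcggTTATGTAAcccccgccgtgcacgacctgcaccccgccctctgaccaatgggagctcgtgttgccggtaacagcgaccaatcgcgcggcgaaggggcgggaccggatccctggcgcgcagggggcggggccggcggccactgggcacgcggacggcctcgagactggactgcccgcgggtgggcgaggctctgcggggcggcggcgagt
The matches start at −205 and −158 from the start site, upstream of the transcript whose level was measured.

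Among the lists, genes of tissue outside the mucosa had the largest positive medians. Of 15 pancreatic acinar genes 7 were tested, 5 were higher at p under 0.05 and 0 lower, and the median was 4.72, led by chymotrypsinogen Ctrb1 (7.13 ± 1.75), pancreatic lipase Pnlip (6.35 ± 1.54) and carboxypeptidase Cpa1 (5.5 ± 1.6). Ctrb1 reached 14.2 and 12.1 CPM in CD male 1 and CD female 1 and 7.85 and 8.68 CPM in HFDmetf male 2 and HFDmetf female 1, and was at 1.33 CPM or less in the other 20 libraries. These values therefore rest on 4 libraries, through which these genes also passed the filter on low counts.

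Of 10 adipocyte genes 3 were higher at p under 0.05, 9 were above 0 on the high-fat diet and below 0 on the control diet, and the median was 3.15. The lipid droplet protein Plin1 had 3.99 ± 1.84, the fatty acid carrier Fabp4 2.39 ± 1.10 and leptin (Lep) 4.2 ± 1.99. Plin1 ranged from 0 to 69.0 CPM in CD and from 0 to 73.0 CPM in HFDmetf, so each group held both extremes. limma-voom gave −4.21 for Plin1 and a list median of −2.75, the reverse direction, and the median was 1.64 without CD male 3 and −0.19 with a smooth muscle score as covariate. In the red blood cell list 3 of 4 genes tested were higher, with a median of 1.72. Hbb-bs, a beta globin, was higher in HFDmetf than in HFD in 6 of 6 animals set beside each other by labelled sex and number. Hbb-bs had 4.28, 10.7 and 33.6 CPM (lowest, median, highest) in HFD and 18, 32.6 and 64.8 CPM in HFDmetf. Its medians were 15.6 and 10.9 CPM in CD and CDmetf. Its interaction was 1.58 ± 0.60, and 1.18, no longer at p under 0.05, without HFD male 2 and HFD female 2, and the near-identical alpha globins Hba-a2 (2.07 ± 0.83) and Hba-a1 (1.87 ± 0.78) cannot be separated by these reads with certainty. Smooth muscle genes had 1 of 13 higher, 11 with the positive pattern and a median of 0.44, and enteric neuron and glia genes 1 of 11 higher and a median of 0.65, with the neuronal nitric oxide synthase Nos1 at 1.46 ± 0.68.

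**Figure D5:**
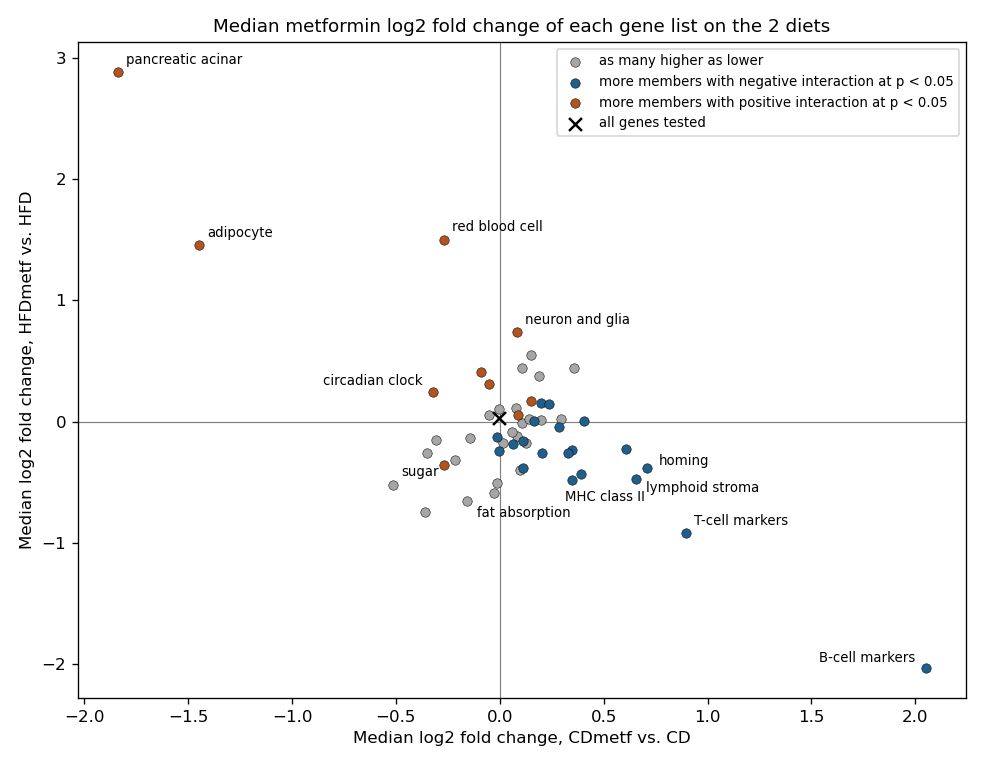
Median metformin log2 fold change of each of the 55 gene lists on the control diet (horizontal axis) and on the high-fat diet (vertical axis); colour gives whether more members had a negative or a positive interaction at p under 0.05, and the cross marks all genes tested. B-cell and T-cell markers, homing, lymphoid stroma and MHC class II lie at lower right, pancreatic, adipocyte, red blood cell and clock genes at upper left, and fat absorption and sugar genes on the side where both effects are below 0.

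Most epithelial lists held no gene at the threshold. In 0 members did the interaction pass p under 0.05 for Paneth cell, tuft cell, enteroendocrine, brush-border, proximal and distal enterocyte, bile acid, fat absorption, fatty acid oxidation, cholesterol, glycolysis, iron, drug-metabolizing and metformin transporter genes, nor for the Reg lectin and IL-22 response list. The medians of some of these lists were nevertheless away from 0. Of 20 fat absorption genes tested 18 had an interaction below 0, with a median of −0.44 (−0.10 with the smooth muscle score), and Apoa4, an apolipoprotein of chylomicrons, had −2.90 ± 1.43 (FDR = 0.799, edgeR). Of 11 Reg lectin and IL-22 response genes 9 were below 0, with a median of −0.74, and −0.14 without HFD male 2 and HFD female 2. The summed level of that list had medians of 1778 and 1879 CPM in CD and CDmetf and of 2041 and 1072 CPM in HFD and HFDmetf, and the groups overlapped. Its antimicrobial lectins Reg3b and Reg3g had interactions of −1.42 ± 0.90 and −0.97 ± 0.63. Cyp4a10, a fatty acid hydroxylase and PPAR target, had −3.35 ± 1.73, from metformin log2 fold changes of 0.95 on the high-fat diet and 4.30 on the control diet. Sugar transport and gluconeogenesis genes had median log2 fold changes with metformin of −0.52 on each diet, 10 of 12 with the same sign, and a median interaction of −0.03. Cell cycle genes had the same sign in 19 of 20, with medians of 0.38 and 0.19. Respiratory complex I, the target of metformin, had 0 of 37 genes at p under 0.05 and a median of −0.19, and complexes II to V had 3 of 37 lower, cytochrome c (Cycs, −0.82 ± 0.31) and Atp5f1 (−0.53 ± 0.22) among them, with a median of −0.21. With the B-cell score as covariate 9 and 14 of the 37 were lower, and the medians were −0.39 and −0.46. Cytosolic ribosomal protein genes had a median of 0.11 and 0 genes at p under 0.05.

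A few genes crossed the threshold in the crypt, goblet, tight junction, M cell and lysosome lists, and not all of them are particular to the epithelium. Crypt stem cell genes had Smoc2, a matrix protein of the Lgr5 cell signature, higher at 0.65 ± 0.24 with a list median of 0.25, and of the regenerating crypt genes only Clu was lower, with a median of −0.08 over 13. Of 13 goblet cell genes Spdef, the factor that drives goblet maturation, was higher (0.56 ± 0.24) and the membrane mucin Muc13 lower (−0.93 ± 0.38). The tight junction protein Ocln was lower (−0.59 ± 0.25, below 0 in 6 of 6 sets), and in the M cell and follicle-associated epithelium list Spib, which M cells and B cells share, was lower (−1.89 ± 0.69). Of 30 lysosomal genes 4 were lower and 1 higher, led by Napsa (−3.17 ± 0.87), an aspartic protease, and Lamp2 (−0.49 ± 0.18), a membrane protein of the lysosome.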

How the data were processed

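The authors trimmed the reads of 24 rRNA-depleted, directional libraries with Trimmomatic 0.39, mapped them to GRCm38 and counted them per gene with STAR 2.5.3a; per the labels and methods, the deposited values are raw read counts, for 55536 genes. The annotation release and the strand setting of the counting are not given in the sources used here, so overlapping genes are uncertain. The 4 lines without a gene held 35.5% to 75.7% of the reads of a library and were left out.

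Counts were filtered with filterByExpr (14076 genes), scaled by the trimmed mean of M-values and fitted with edgeR 4.0.16 (R 4.3.3), quasi-likelihood, on terms for group, for sex and for the replicate number, with 17 residual degrees of freedom; the interaction was a contrast of the 4 groups, with Benjamini-Hochberg adjustment over all genes. CPM are relative to the scaled library size, lists of 55 functions are described by counts and medians, and intervals of counting error are not given. Named genes were Cxcr4, Clu and Rel, the 10 of smallest p in each direction with opposite signs (immunoglobulin and T-cell receptor segments, predicted models, Xist and Y-linked genes left out) and the 2 of smallest p in each list; other list members were named after their values were seen. Some genes under this rule are not reported here. Members and lists were chosen with earlier results of these data known. limma 3.58.1 (voom), DESeq2 1.42.0, other filters and scaling, covariates and leaving out animals were alternatives, 1 of them (4 libraries together) chosen after the data were seen. The scripts were tested on simulated data. Promoters are from RefSeq (GRCm38.p6).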

Additional observations from a re-analysis of the deposited data

Results flagged for a closer look

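The level of each of 21 genes named individually, and 3 marker scores, were checked for a lone high or low library in each group of 6 (96 checks; the gap to the nearest library as a share of the range, above Dixon's critical value); 7 were found, and chance gives about 1 in 20 groups. In CD, CD female 1 stood high for Fcmr (0.651) and Cxcr5 (0.803), with 78 and 45 reads, and it was also the CD library with the highest B-cell sum, 126 CPM. CD male 3 stood low for Lrig3 (0.722), and it is the library in which CT010467.1 took 34.6% of the reads. In HFDmetf, HFDmetf female 2 stood low for Ly6d (0.792), with 0 reads in the shallowest library. In HFD, HFD male 3 stood high for Nrg4 (0.637), with 14 reads, and HFD female 1 high for Pnlip (1) and Cpa1 (0.72), with 12 and 15 reads in the deepest library; the part of depth in these values was not tested.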

How the results depend on the processing

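Genes past an FDR of 0.05 numbered 0 in every alternative run except DESeq2, which gave 4. Genes at an unadjusted p under 0.05, 849 as reported, numbered 1925 of 36824 without a filter on low counts and 470 of 9663 with at least 10 counts in every library, where more or fewer genes were tested; they ranged from 591 (without HFDmetf female 2) to 1258 (without HFDmetf female 3) when 1 animal was left out. Genes of opposite sign, 6944 as reported, numbered 18613 without the filter and ranged from 5753 (without CD male 3) to 8272 (without CD male 1) over the animals left out. limma-voom gave 259 higher and 580 lower genes.

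Same-numbered animals did not all deviate together (mean r 0.13, from −0.46 to 0.757 over 72 pairs, against −0.0642 over 144 pairs of different number), so a number is not shown to pair animals. Without the replicate block 666 of 13781 genes had p under 0.05 (347 higher, 319 lower, 618 among the 849) and 6790 had opposite signs; the T-cell list then had 4 lower of 8 genes tested in place of 9 of 12, MHC class II 3 in place of 6, NF-kappa B subunits 2 in place of 3, and the pancreatic list a median of 0.56 over 2 genes that passed the filter.

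Single genes reversed as follows, and the cause was not tested. limma-voom gave 0.22 for Duoxa2 and −4.21 for Plin1. The B-cell score gave 0.77 for Cxcr5, 0.087 for Ltb, 0.18 for Cr2, 0.53 for Slc7a11 and 0.085 for Egr3, and the smooth muscle score 0.019 for Gata6. Cr2 is a member of the B-cell score, so its value with that score is no separate measurement. G6pc ranged from −1.25 (without CD male 1) to 0.031 (without CDmetf female 3) and Itgae from −0.30 (without HFDmetf female 2) to 0.0015 (without HFDmetf male 1). Adding the distal minus proximal enterocyte score gave 1121 genes at p under 0.05, 777 of them among the 849. The shallowest library, at 1829690 reads, puts the floor of 3 reads at 1.71 CPM, above the median level of Fcmr and Cxcr5 in 3 of 4 groups, so differences in those genes below that level were not detectable in it.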
